A study of Rattus norvegicus with 10 samples.

Results

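Red cells and their precursors express a small set of genes that few other cells share, and 7 of them were followed here from serum into milk whey of rats. They were LOC287167 (an alpha globin gene), Hbb (beta globin), Alas2, Slc4a1, Klf1, Rhag and Bpgm, and they were chosen by name. Every non-control probe carrying 1 of these names was used, which gave 9 of the 41012 probes on the array that are not controls, with Slc4a1 and Rhag measured by 2 probes each and the other 5 genes by 1 each. The array names 35469 genes or transcripts in all.

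Whey is milk freed of its fat, its cells and its casein by centrifugation, and here whey and serum were both passed through fine filters to remove debris. Whey was prepared from milk of 3 dams of strain F344/N, an inbred rat, and each dam gave milk at d 2, d 9 and d 16 after birth, so that every day had 3 arrays (dams 1, 2 and 3). Serum of the same dams was taken on d 21 postpartum, and the RNA of the 3 sera was mixed and put on 1 array. Serum therefore has no replicate, its value is an average over the dams, and its day differs from every whey day. No group carried a genetic change. Before every milking the dams were kept apart from their pups, given oxytocin and lightly anaesthetized with sevoflurane, so that all whey groups share these steps, and the blood for serum was drawn under deep anaesthesia. The arrays lay on 3 slides: d 2 whey of dams 1 and 2 on slide 1, d 2 whey of dam 3 and all d 9 whey on slide 2, and all d 16 whey with serum on slide 3, which was scanned on a later day. Serum and d 16 whey thus shared slide and scan day, whereas d 16 cannot be told apart from slide and scan day when it is compared with d 2 or d 9.

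Haemoglobin is built from alpha and beta globin chains, each holding a haem group. Mammalian red cells lose their nucleus as they mature, and the youngest of them in blood still carry large amounts of globin mRNA, so that globin transcripts are a common mark of red cell RNA in blood and in fluids that have touched blood. Milk RNA is dominated by transcripts of the mammary epithelium that makes milk protein. The comparison of serum with each whey day asks how much of the RNA of red cells was seen in whey and whether that changed through lactation.

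The probes are 60 bases long, and 4 of the 9 are printed whole because the results turn on them. LOC287167 is shown because it was the globin probe with signal in whey, Alas2 because it is restricted to red cell precursors, Bpgm because it was in whey on every array, and the first of the Slc4a1 probes because it had no signal in serum. Each is written 5′ to 3′ in lower case.
LOC287167: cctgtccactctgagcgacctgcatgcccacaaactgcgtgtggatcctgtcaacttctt
Alas2: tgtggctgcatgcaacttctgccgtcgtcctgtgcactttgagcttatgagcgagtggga
Bpgm: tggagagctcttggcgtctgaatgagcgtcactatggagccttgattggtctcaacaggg
Slc4a1 (A_43_P11502): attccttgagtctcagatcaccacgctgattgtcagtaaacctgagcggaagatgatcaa
Of the Hbb probe only its last bases, from the start codon in capitals, are given, since the rest precedes that codon.
Hbb: ATGgtgcacctga
The start codon is at base 48 of the probe. Set against the RefSeq start of transcription of Hbb (assembly GRCr8), the probe begins at base 1 of the transcript, so it reads the very beginning of the beta globin mRNA. For LOC287167 the accessions that the files list for the probe belong to 3 RefSeq genes, Hba-a1, Hba-a2 and Hba-a3, and LOC287167 itself is named Hba-a3 in that assembly. Its signal is that of alpha globin copies that the probe was not shown to separate.

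On build rn4, which the files use, the probe of LOC287167 lies on chromosome 10 (15559132 to 15559189, minus strand), that of Hbb on chromosome 1 (161620134 to 161620193, minus strand), that of Alas2 on chromosome X (39810353 to 39810412, plus strand), that of Klf1 on chromosome 19 (24907094 to 24907153, minus strand) and that of Bpgm on chromosome 4 (61870924 to 61870983, plus strand). Slc4a1 has probes on chromosome 10 at 91455352 to 91455411 (A_44_P289637) and 91458828 to 91459400 (A_43_P11502). Rhag has probes on chromosome 9 at 16209538 to 16209597 (A_43_P13882) and 16215069 to 16215951 (A_44_P271810). All 4 are on the minus strand. A_43_P11502 and A_44_P271810 span more than 60 bases of the genome, so their sequence is split there. No exon annotation of rn4 was used here.

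Signals are given as log2 of the processed signal after quantile normalization over the 10 arrays, and a probe is called well above background where the scanner software flags it so. Well above background were 26.1% to 43.9% of probes on whey arrays and 15.0% on the serum array. The 75th percentile of the processed signal, before normalization, was 4.11 on the serum array and 12.5 to 83.2 on the whey arrays, so the scaling bears on every value of serum against whey. No spot of the 9 probes had an outlier flag, and 0 spots were saturated on any array.

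In serum 8 of the 9 probes, covering all 7 genes, were well above background. All 8 were over 4-fold higher in serum than in d 2 whey, the same 8 than in d 9 whey, and the same 8 than in d 16 whey. Over all probes measured in serum or in whey of the day, 15.5%, 15.5% and 15.7% were over 4-fold higher in serum than in d 2, d 9 and d 16 whey, respectively. Among the probes well above background in serum, as these 8 are, the shares were 36.5%, 38.8% and 36.7%. Because the serum array had no replicate, these are counts of differences and not of tests. Cells were removed from whey, and whey and serum were filtered, before RNA was taken, so these signals do not count cells of a type. With spike-in scaling the count was 6 for every day, and the probes lost were Bpgm and the A_44_P271810 probe of Rhag. With another background correction (normexp) it was also 6 for every day, and the probes lost were those of Rhag. Here normexp adds an offset of 50 to every signal, which shrinks ratios that involve low signals. All folds, bounds and percentages given with normexp carry this offset. The plot of the 9 probes by sample shows the serum value beside every whey value.

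**Figure D1:**
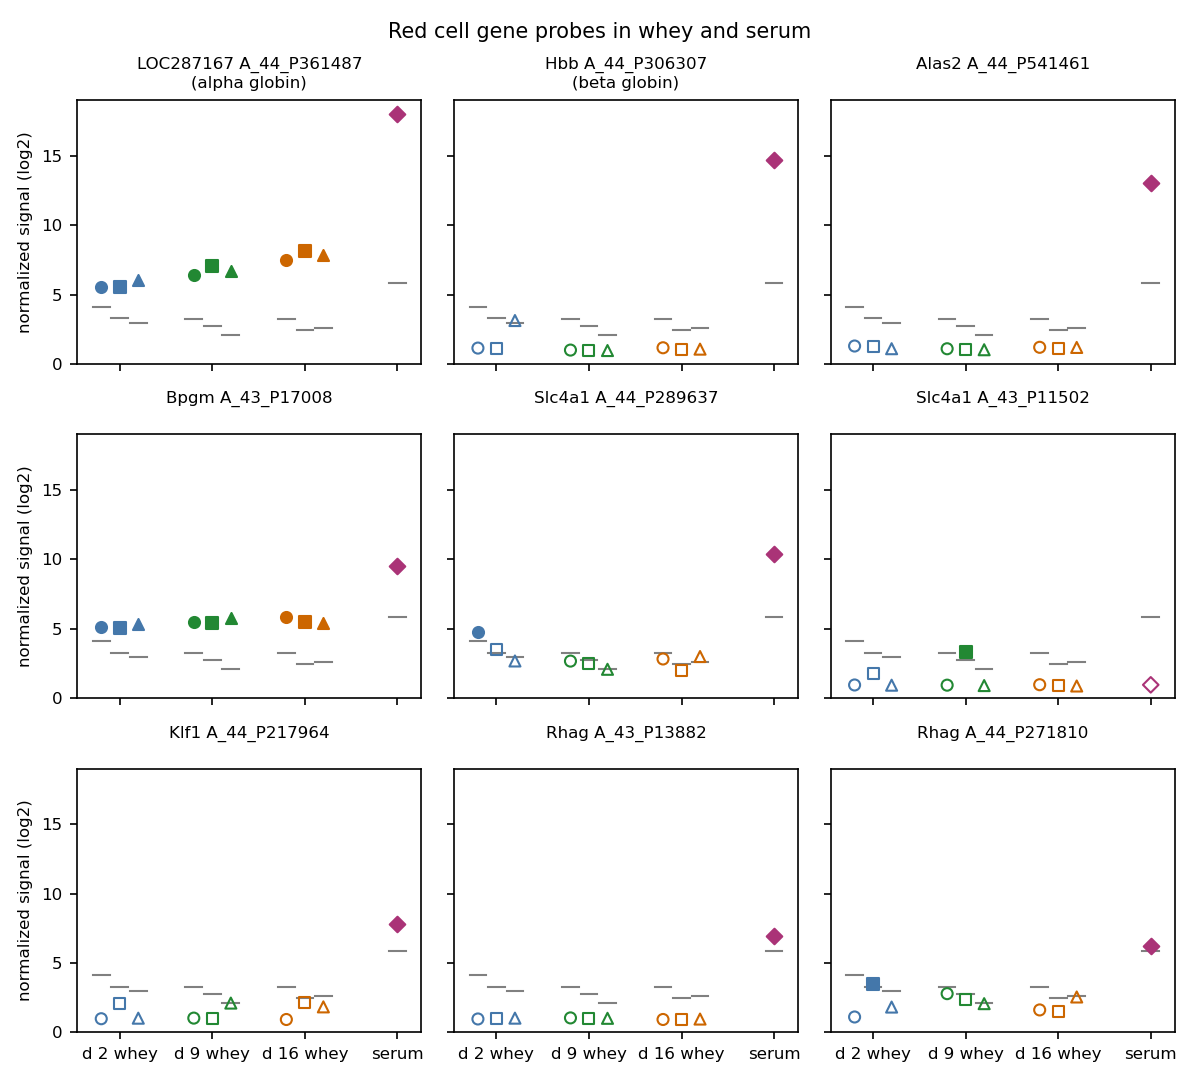
Normalized signal (log2, vertical axis) of the 9 probes in d 2, d 9 and d 16 whey (circle, dam 1; square, dam 2; triangle, dam 3) and in the serum pool (diamond). Filled symbols are well above background and open symbols are not, and grey bars mark the lowest normalized signal of any probe well above background on that array. LOC287167 and Bpgm are filled on all 10 arrays, whereas Hbb, Alas2, Klf1 and the A_43_P13882 probe of Rhag are filled in serum only.

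LOC287167 was well above background in all 9 whey samples. Its log2 signal in d 2 whey was 5.52, 5.56 and 6.07 in dams 1, 2 and 3. In d 9 whey it was 6.41, 7.06 and 6.74. In d 16 whey it was 7.47, 8.17 and 7.88, and in serum 18.04. The 3 days did not overlap, every dam had its lowest value on d 2 and its highest on d 16, and serum stood far above all of them.

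The serum signal of LOC287167 was 5113-fold that of d 2 whey (12.32 ± 0.30 on the log2 scale, SD of the 3 whey arrays), 2524-fold that of d 9 whey (11.30 ± 0.33) and 1175-fold that of d 16 whey (10.20 ± 0.35). Put the other way, the whey signal was 0.0171%, 0.0176% and 0.0249% of the serum signal on d 2, then 0.0316%, 0.0496% and 0.0397% on d 9, and 0.0658%, 0.107% and 0.0873% on d 16, for dams 1, 2 and 3. These are ratios of signal between arrays that received the same mass of RNA, and they are not shares of blood in milk. On the processed scale, before normalization, the 9 whey values lay between 22.8 and 519.5 and serum at 239560, and whey was 0.00954% to 0.217% of serum. The share of the summed processed signal of an array that this probe took was 5.39% in serum and 0.00025% to 0.00209% in whey.

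The size of that ratio rests on the scaling. The d 2 mean was 0.0196% of serum with quantile normalization, 0.00378% with 75th percentile scaling, 0.0169% with spike-in scaling and 0.0542% with normexp. The d 16 mean was 0.0851%, 0.0169%, 0.114% and 0.131% in the same order. Under each of the 4 the d 9 mean lay above the d 2 mean and the d 16 mean above both. Of 4635 probes that passed the background flag on all 10 arrays, LOC287167 had the largest serum minus whey difference of all (11.27 on the log2 scale), and the next, the probe of Tp53i11, had 9.58. Members without a level in whey could not be placed in that order. Among all 6170 ranked probes well above background in serum, whatever their flag in whey, LOC287167 was 11th. Probes of other cells such as Npy (15.77) and the platelet gene Pf4 (11.28) stood before it, but that wider order includes differences against background. Pf4 was itself seen in most whey samples, though not in all, so the rule of all 10 arrays kept it out of the 4635. First place among the 4635 therefore rests on that rule.

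The Hbb probe behaved otherwise, with a strong signal in serum and none well above background in whey. Its log2 signal was 14.72 in serum. In whey it was 1.16, 1.14 and 3.14 on d 2, then 1.01, 1.00 and 0.98 on d 9, and 1.18, 1.06 and 1.08 on d 16. Only dam 3 on d 2 stood off from the rest, and it too was not flagged as well above background. For such a probe a bound was taken against, on each array, its own signal or the lowest signal of any probe well above background, whichever was higher. With quantile normalization, to which all bounds refer unless another scaling is named, Hbb was at least 2365-fold higher in serum than in d 2 whey, at least 4141-fold higher than in d 9 whey and at least 3915-fold higher than in d 16 whey. The bounds were 434.5-fold to 661.1-fold with spike-in scaling and 303.6-fold to 317.9-fold with normexp. The measured values were 9.91 or less in whey and 4838 in serum on the processed scale.

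Another beta globin probe, named MGC72973 in the files and taken from the list of other globin genes, was also read because the accessions listed for it belong to Hbb, Hbb-b1 and Hbbl1. It sits on chromosome 1 at 161590680 to 161590739 (rn4, minus strand). Its log2 signal was 17.59 in serum (90443 on the processed scale) and 1.03 to 2.01 in the 9 whey samples, and it was well above background in none of these. It was at least 17948-fold, 30302-fold and 28653-fold higher in serum than in d 2, d 9 and d 16 whey, respectively. The bounds were 8122-fold to 12360-fold with spike-in scaling and 2147-fold to 2303-fold with normexp. A further probe of the files, named X15009 and picked after its values were seen, is described there as a beta globin gene and was at background everywhere, with a log2 signal of 0.86 in serum.

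The alpha and beta globin probes can be set against each other through their ratios to serum, each within its own probe. Had MGC72973 stood in each whey sample at the same ratio to serum as LOC287167, its log2 signal there would have been 5.08 to 7.73, above the lowest signal well above background on all 9 whey arrays (2.12 to 4.11). The signals measured were 1.03 to 2.01. Whey was 0.0171% to 0.107% of serum for LOC287167 and at most 0.0022% to 0.00873% for MGC72973, so the 2 ratios differed by at least 1.96-fold to 38.6-fold in the 9 samples. On the processed scale, MGC72973 would have been 8.63 to 196.1 at the ratio of LOC287167 and was 1.99 to 7.07. For Hbb the same comparison gave a log2 signal of 2.21 to 4.86, which was above the lowest signal well above background on 5 of the 9 arrays. For Alas2 it gave 0.56 to 3.21, above it on 2, so Alas2 at the ratio of LOC287167 would have been below detection in 7. With normexp the bound on that ratio was 1.11 to 3.51 over the 9 samples. With 75th percentile or spike-in scaling it was 0.945 to 24.8, above 1 in 8 of the 9, so that in 1 sample unequal ratios were not detectable. The unequal ratios are shown in the plot of whey relative to serum.

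**Figure D2:**
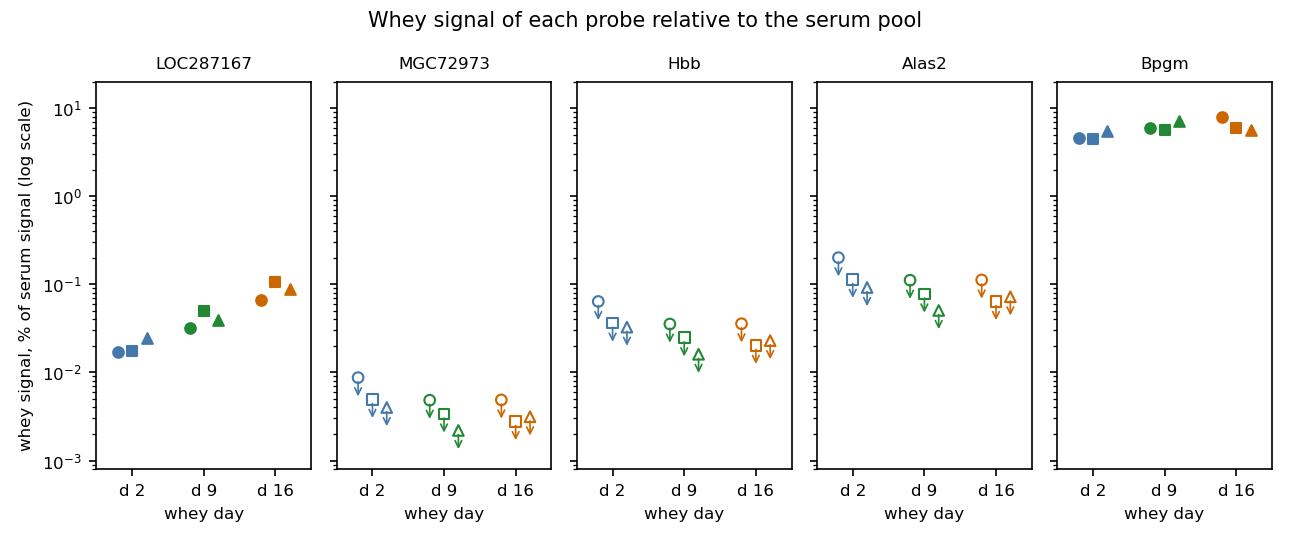
Whey signal as a percentage of the serum signal of the same probe (log scale, normalized signal) for each whey sample (circle, dam 1; square, dam 2; triangle, dam 3), by day. Filled symbols are well above background, and open symbols with arrows are upper bounds for samples where the probe was not. LOC287167 rises from 0.0171% to 0.107%, the bounds of MGC72973 lie at 0.00873% or less, and Bpgm lies between 4.50% and 7.84%.

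The list of other globin genes held 7 genes on 8 probes, of which 5 were well above background in serum. Cygb (cytoglobin, a globin of non-erythroid cells) was at 9.02 in serum and at least 65.3-fold higher there than in whey. Hbe2 and Hbe1, embryonic beta-type globins, were at 7.41 and 6.65 in serum and at least 21.5-fold and 12.7-fold higher, while the other probe of Hbe1 was at background throughout. These 3 were well above background in 0 of 9 whey samples. Mb (myoglobin) was measured on all 9 and fell from d 2 to d 9 by 1.14 on the log2 scale (SE 0.14, limma adjusted p = 0.00398).

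Alas2 makes the red cell form of the enzyme that opens the haem pathway. Its log2 signal was 13.07 in serum and 1.30, 1.24 and 1.11 on d 2, 1.11, 1.07 and 1.04 on d 9, and 1.21, 1.16 and 1.20 on d 16. All 9 whey values lay close together and none was well above background, with 2.48 or less on the processed scale against 1051 in serum. The serum signal was at least 781-fold higher than d 2 whey, 1318-fold higher than d 9 whey and 1247-fold higher than d 16 whey. With spike-in scaling the bounds were 94.4-fold to 143.7-fold over the 3 days, and with normexp 90.9-fold to 95.6-fold.

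The rest of the pathway is used by nearly every cell. Of 17 probes for 14 genes, 12 were well above background in serum, 13 were so on all 9 whey arrays, and 0 were over 4-fold higher in serum than in all 3 days. The median serum minus whey difference of the list was -0.57, -0.43 and -0.38 for d 2, d 9 and d 16 on the log2 scale, against 6.46, 6.44 and 6.18 for the 9 probes of the 7 genes. With bounds in place of the differences against background, the median of the 9 probes was 4.37, 5.12 and 5.04. Over all probes measured in serum or in whey of the day it was -1.12, -1.07 and -1.09, and over those well above background in serum 0.66, 0.81 and 0.71. Alas1, the form of the same enzyme found in all tissues, was at 8.44 in serum and at 9.85 ± 0.32 in whey (SD, n = 9). From d 2 to d 16 Alad, the enzyme of the next step, fell by 1.43 (SE 0.13, adjusted p = 0.00057) and Fech, which inserts the iron, by 0.77 (SE 0.17, adjusted p = 0.0125), both by limma. Slc25a38, a mitochondrial carrier needed for haem synthesis, rose by 0.70 from d 2 to d 9 (SE 0.15, limma adjusted p = 0.0206). Of the 15 probes tested, 3 rose and 4 fell from d 2 to d 16, where 28.5% of all probes tested were called.

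Slc4a1 encodes band 3, the anion exchanger that anchors the red cell skeleton, and its 2 probes disagreed. The A_44_P289637 probe was at 10.37 in serum. In whey it was at 4.75, 3.49 and 2.69 on d 2, at 2.68, 2.49 and 2.09 on d 9, and at 2.83, 2.02 and 3.01 on d 16, and it was well above background in d 2 whey of dam 1 alone. Serum was at least 203-fold and 176-fold higher than d 9 and d 16 whey, and no fold is given for d 2, where the other 2 arrays were not well above background. With spike-in scaling the bounds were 12.3-fold and 17.0-fold, and with normexp 15.8-fold and 14.9-fold. The A_43_P11502 probe, printed above, was at 0.97 in serum, not above background. It was well above background in 1 sample, d 9 whey of dam 2 (3.33), and between 0.88 and 1.76 in the other 8 whey samples.

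Rhag encodes the Rh-associated glycoprotein, a partner of the Rh blood group proteins. Its A_43_P13882 probe was at 6.94 in serum and 0.93 to 1.04 in the 9 whey samples, where it was never well above background. Serum was at least 11.1-fold, 18.8-fold and 17.8-fold higher than d 2, d 9 and d 16 whey. With spike-in scaling the bounds were 1.63-fold, 1.22-fold and 1.85-fold, and with normexp 2.46-fold to 2.59-fold. The A_44_P271810 probe was at 6.25 in serum and 1.11 to 3.48 in whey, with d 2 whey of dam 2 well above background. Its processed signal of 9.27 in serum lay inside the whey range of 2.19 to 9.55, and it was at least 11.7-fold higher in serum than in d 9 whey with quantile normalization and at least 2.10-fold higher with normexp, whereas spike-in scaling gave no bound above 1.

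Among 20 probes for 15 other genes of the red cell membrane and skeleton, 9 were well above background in serum, and all of these 9 were over 4-fold higher in serum than in all 3 days. Being seen in serum, they belong beside the 36.5% to 38.8% of all such probes that were higher than on single days. Rhd, the Rh blood group protein, was at 9.67 in serum and at least 102-fold higher than in whey. Aqp1, the water channel of red cells and many other cells, was at 8.68 (at least 51.6-fold). Add2, a cap of skeleton actin, was at 8.47 (at least 44.8-fold), Art4, which carries the Dombrock blood group, at 7.96 (at least 31.5-fold) and Tmod1, which caps the other actin end, at 6.41 (at least 10.7-fold). These 5 were well above background on no whey array. Their bounds were taken with quantile normalization only. The bounds of Rhag and Klf1, at serum levels near those of Art4 and Tmod1, were far smaller with spike-in scaling. Between days 1 of the 4 probes tested was called, a probe of Xk that rose by 1.42 from d 2 to d 16 (SE 0.40, limma adjusted p = 0.0329). That probe was not above background in serum, and 28.5% of all probes tested were called from d 2 to d 16. The change of the other Xk probe was 1.41 with an adjusted p of 0.0896 in the limma fit, which missed the threshold.

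Klf1 is the transcription factor that binds CACCC sequences and switches on adult beta globin. Its log2 signal was 7.83 in serum. It was 0.99, 2.08 and 1.03 on d 2, then 1.03, 1.01 and 2.11 on d 9, and 0.93, 2.17 and 1.84 on d 16, and no whey sample was well above background. Serum was at least 20.6-fold, 34.8-fold and 32.9-fold higher than d 2, d 9 and d 16 whey. With spike-in scaling these bounds were only 2.72-fold, 2.02-fold and 3.08-fold, and with normexp 4.04-fold to 4.19-fold. Its processed signal was 22.5 in serum and at most 9.97 in whey. In a list of 10 other erythroid regulators on 14 probes, 4 were well above background in serum and over 4-fold higher there than in all 3 days, where 36.5% to 38.8% of all probes seen in serum were so on single days. These were Nfe2 (9.78 in serum, and well above background in 1 whey sample), Gfi1b (8.39, and in 5 whey samples), Gata1 (8.02) and Hemgn (7.04). Gata1, the master factor of red cell and platelet precursors, was at least 32.8-fold and Hemgn at least 16.5-fold higher in serum than in whey. From d 2 to d 16 whey, Lmo2 rose by 1.31 (SE 0.19, adjusted p = 0.00288), Gfi1b by 0.67 (SE 0.20, adjusted p = 0.037) and a probe of Klf3 by 0.66 (SE 0.18, adjusted p = 0.0264) in the limma fit, and 0 of the 5 probes tested fell. Over all probes tested, 28.5% were called in that comparison.

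The stretch before the Hbb start of transcription that holds the CACCC sequence is shown because Klf1 is 1 of the 7 genes. It lies at chr1:167663786-167663845 of GRCr8 (minus strand), and the capitals mark the 8 letters searched, which end 91 bases before the start.
Hbb upstream: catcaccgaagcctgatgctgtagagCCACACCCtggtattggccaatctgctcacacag
Searched on either strand in the 250 bases before the start, CCACACCC was found in 1 of the 6 member genes with a RefSeq promoter sequence (Hbb) and in 2.84% of all 33469 promoters. The shorter CACCC, which lies inside it, was found in 3 of the 6 (Hbb, Klf1 and Rhag) and in 49.2% of promoters. The motif AGATAA, which GATA factors bind, was found in Alas2 alone of the 6 and in 10.3% of promoters. A match is only a match of letters.

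Bpgm makes 2,3-bisphosphoglycerate, which lowers the oxygen affinity of haemoglobin, and it was the other member measured in all 9 whey samples. Its log2 signal was 5.11, 5.09 and 5.36 on d 2, 5.49, 5.41 and 5.75 on d 9, 5.89, 5.48 and 5.41 on d 16, and 9.56 in serum. All 3 d 2 values lay below those of d 9 and d 16, which overlapped. Serum was 20.7-fold the mean of d 2 whey (4.37 ± 0.15 on the log2 scale, SD of 3), 16.1-fold that of d 9 whey (4.01 ± 0.18) and 15.6-fold that of d 16 whey (3.97 ± 0.26). Whey was 4.50% to 7.84% of serum, against 0.107% or less for LOC287167.

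The size and the direction of the Bpgm difference depended on the scaling. Its processed signal was 71.5 in serum and 17.6 to 204.5 in whey, so that the groups overlapped before normalization. With spike-in scaling, serum was 2.56-fold, 0.698-fold and 1.26-fold the mean of d 2, d 9 and d 16 whey, so the direction turned for d 9. Under that scaling the median serum minus whey difference of all measured probes was -2.81, -3.82 and -3.18, and Bpgm lay 4.17, 3.30 and 3.51 above it. With quantile normalization it lay 5.50, 5.08 and 5.06 above the median.

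The list of red cell enzymes and receptors held 16 other genes on 21 probes, of which 11 were well above background in serum. Of these 11, 4 were over 4-fold higher in serum than in all 3 days. Among all probes seen in serum, 36.5% to 38.8% were so on single days. The genes of 3 of the 4 are described. Eraf, now named Ahsp, is the chaperone of free alpha globin. It was at 13.26 in serum and 0.80 to 1.65 in whey, well above background in no whey sample, and at least 1240-fold higher in serum than over all whey samples. Car1, the carbonic anhydrase that is abundant in red cells, was at 10.56 in serum and well above background in 4 of 9 whey samples. It rose by 1.73 from d 2 to d 16 (SE 0.27, adjusted p = 0.0039) and by 1.58 from d 9 to d 16 (SE 0.27, adjusted p = 0.0416), both in the limma fit. Hebp1, a haem-binding protein, was at 8.91 in serum and 6.64 ± 0.47 in whey (SD, n = 9). Some enzymes that many tissues use fell. Cat (catalase) fell by 3.22 from d 2 to d 16 (SE 0.51, adjusted p = 0.00405), while Hk1 and Car2 fell by 1.93 (SE 0.24, adjusted p = 0.00396) and 1.73 (SE 0.19, adjusted p = 0.00286) from d 2 to d 9, all by limma. The plot of the lists places every probe by its serum minus whey difference.

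**Figure D3:**
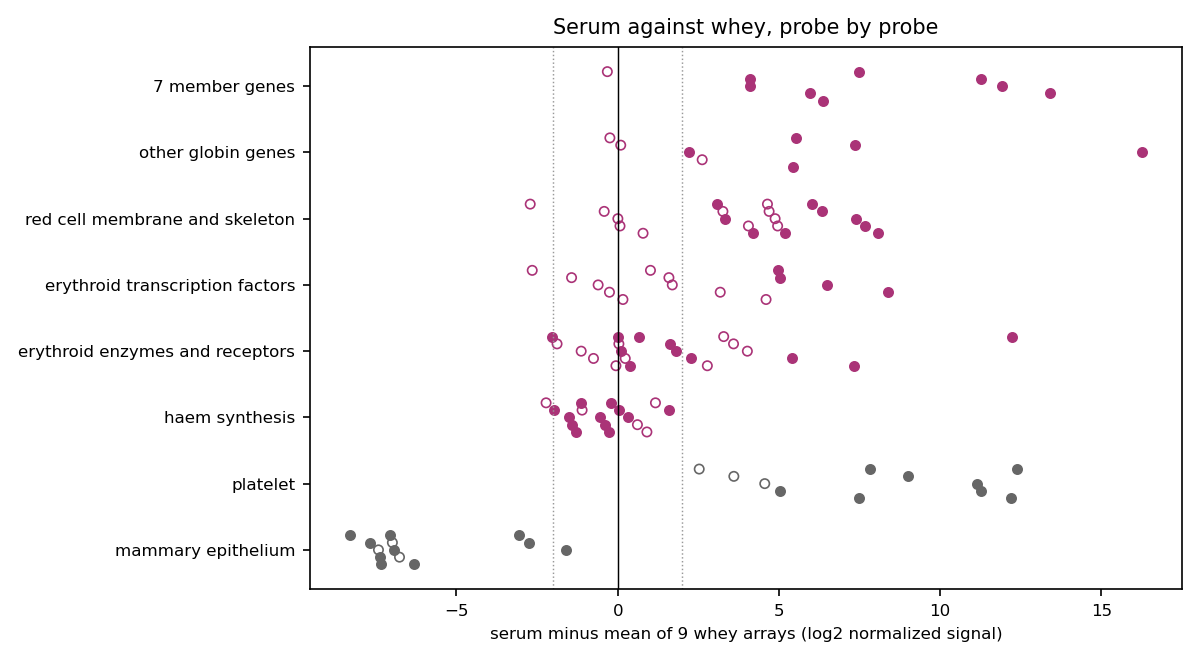
Serum minus the mean of the 9 whey samples (log2 normalized signal, horizontal axis) for each probe of the 7 member genes, of 5 other red cell lists and of platelet and mammary epithelium markers (grey). Filled points were well above background in serum, and dotted lines mark 4-fold either way. The 8 filled member points all lie to the right of the 4-fold line, no filled haem synthesis point does, and the mammary markers lie to the left of 0.

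Of the 9 probes only LOC287167 and Bpgm met the rule for a test between whey days (flagged above background and brighter than 20 in processed signal in 1 or more whey samples). LOC287167 rose by 1.02 on the log2 scale from d 2 to d 9 (SE 0.25, 2.03-fold, limma adjusted p = 0.0313 over 16849 probes). It rose by 2.12 from d 2 to d 16 (SE 0.25, 4.35-fold, adjusted p = 0.00134 by limma). From d 9 to d 16 it differed by 1.10 (SE 0.25, 2.15-fold, adjusted p = 0.0821 by limma), which missed the threshold of 0.05. In single dams, d 16 was above d 2 by 1.94, 2.61 and 1.81 in dams 1, 2 and 3, d 9 was above d 2 by 0.89, 1.50 and 0.67, and d 16 was above d 9 by 1.06, 1.11 and 1.14. In every dam both steps, d 2 to d 9 and d 9 to d 16, were upward, which fixes the direction from d 2 to d 16. These differences are at equal mass of RNA and not at equal volume of milk.

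Bpgm differed by 0.37 from d 2 to d 9 (SE 0.17, adjusted p = 0.168), by 0.41 from d 2 to d 16 (SE 0.17, adjusted p = 0.11) and by 0.04 from d 9 to d 16 (SE 0.17, adjusted p = 0.925), none past the threshold in limma. Thus 1 of the 2 probes was called from d 2 to d 9, 1 of 2 from d 2 to d 16 and 0 of 2 from d 9 to d 16. Of all 16849 probes tested, 17.6%, 28.5% and 1.42% were called in these comparisons (the last being 239 probes, or 117 with dam as a block). The median change of all probes was 0.11, 0.04 and -0.06. From d 9 to d 16, LOC287167 alone of the 2 had an unadjusted limma p under 0.05, and the Tukey-Kramer test also called 0 of 2.

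**Figure D4:**
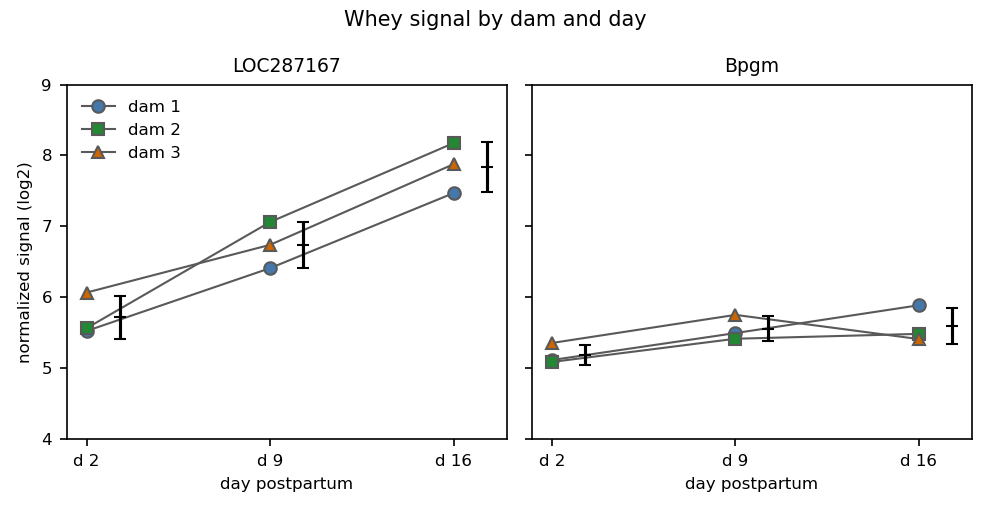
Normalized whey signal (log2) of LOC287167 and Bpgm on d 2, d 9 and d 16 postpartum, with 1 line per dam and, beside each day, the mean and SD of the 3 dams. All 3 dams rise in LOC287167 from between 5.52 and 6.07 on d 2 to between 7.47 and 8.17 on d 16, and Bpgm stays between 5.09 and 5.89.

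The rise of LOC287167 from d 2 to d 16 passed the threshold under all 19 alternatives tried, with changes of 1.27 to 2.75 and adjusted p-values of 0.000283 to 0.0114. The rise from d 2 to d 9 did so under 12 of 20. Slide as a fixed block was among the 20 but not among the 19. It could not be fitted for d 16, because no slide held d 16 whey together with whey of another day. Within slide 2, the only slide with samples of both days, d 9 whey (6.74 ± 0.33, SD, n = 3) was above d 2 whey of dam 3 (6.07) by 0.67, and with slide as a fixed block the adjusted p was 0.335 in limma. With slide as a random block the change was 1.06 (limma adjusted p = 0.0206) and the call was kept. The call was also lost in limma with 1 array left out. Without dam 1 on d 2 the change was 0.92 (adjusted p = 0.0792), and without dam 2 on d 2 it was 0.94 (adjusted p = 0.091). Without dam 2 or dam 3 on d 9 it was 0.86 (adjusted p = 0.101) or 1.02 (adjusted p = 0.0605), and without dam 3 on d 16 it was 1.02 (adjusted p = 0.055).

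Markers of other blood and milk cells are given beside these values, and their part in the rise of LOC287167 was not tested. Of the platelet markers, 8 of 11 probes were well above background in serum, and these 8 were over 4-fold higher there than in all 3 days. Among all probes seen in serum, 36.5% to 38.8% were so on single days. Pf4 (platelet factor 4) was at 16.09 in serum and was seen in 8 of 9 whey samples. In whey it fell by 1.73 from d 2 to d 16 (SE 0.38, limma adjusted p = 0.0134). The summed level of the platelet list (normalized signal, linear scale) was 67.8 to 101.6 on d 2, 48.9 to 75.3 on d 9 and 38.9 to 48.0 on d 16, against 98668 in serum. The defining markers Gp1bb and Treml1 were not well above background on any whey array.

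Macrophage and monocyte markers rose over the same days as LOC287167. Of 11 probes tested, 7 rose and 2 fell from d 2 to d 9, 9 rose and 2 fell from d 2 to d 16, and the 2 that fell were those of Cd14. The summed level of the 17 probes was 479 to 588 on d 2, 571 to 1236 on d 9 and 2086 to 2449 on d 16, against 10905 in serum. Fcer1g, the signalling chain of Fc receptors, rose by 3.72 (SE 0.39, adjusted p = 0.000823) and C1qb, a chain of complement C1q, by 3.69 (SE 0.41, adjusted p = 0.00104) from d 2 to d 16 in limma. Csf1r, Cd163 and Marco were not well above background in any whey sample. Of the lymphocyte markers tested, 2 of 3 rose from d 2 to d 16, Cd3d by 1.84 (SE 0.27, limma adjusted p = 0.00283) and Cd3g by 1.16 (SE 0.27, limma adjusted p = 0.0164). Of the neutrophil markers 1 of 5 did, Np4 by 1.03 (SE 0.20, limma adjusted p = 0.00772), which is not above the share of 28.5% over all probes. Summed levels were 68.2 to 100.8, 85.3 to 140.2 and 151.4 to 214.9 for lymphocyte markers on d 2, d 9 and d 16, and 80.4 to 100.1, 66.6 to 235.9 and 104.5 to 475.5 for neutrophil markers.

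Markers of the labelled fluids were also read. The 13 mammary epithelium probes passed the background flag on each of the 9 whey arrays, and 12 of them were more than 4-fold lower in serum on all days. Their median serum minus whey difference was -6.95, -6.72 and -7.14 for d 2, d 9 and d 16. Over all measured probes it was -1.12, -1.07 and -1.09, and the share of all probes that were 4-fold lower was not counted. Liver markers were well above background in serum on 5 of 20 probes, beside 15.0% of all probes on that array, and on no whey array for 19 of 20.

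The 5 probes whose pattern over the 9 whey samples was most like the mean of the LOC287167 and Hbb probes were those of Sp110 (r = 0.92), Ocel1 (0.92), Serf2 (0.91), Cd24 (0.90) and Capn2 (0.90), among 6290 probes with a symbol. Because the Hbb probe held no signal above background in whey, the likeness was also taken with LOC287167 alone, and then the 5 were Map1lc3b (0.98), Ada (0.98), Plcxd2 (0.98), Epn1 (0.98) and Hcfc1r1 (0.98). The 2 sets of 5 shared 0 genes. These are Pearson correlations over 9 samples that share dams, slides and days, and they are descriptions.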

How the data were processed

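Total RNA of whey and serum was labelled with cyanine 3 and hybridized to 1-colour Agilent Whole Rat Genome arrays. The deposited values are intensity values, which the authors obtained from the scanned images in Feature Extraction 9.5.3.1 (version from the submitters' processing notes). The processed signal is background-subtracted and not normalized between arrays. The deposited 0 or 1 flags are other values of the same software. Also deposited were 10 columns of quantile-normalized values, not used because their names match no label.

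From these, log2 processed signal was quantile normalized, outlier spots were removed and spots averaged per probe. limma 3.58.1 in R 4.3.3 (data.table version 1.17.8, jsonlite 2.0.0) compared days among the 9 whey arrays, adjusting by Benjamini-Hochberg over 16849 probes, two-sided, threshold 0.05. The fit was tested on simulated data. Serum entered no test. A fold against a day without any array well above background is a bound. Dams pair the samples (the labels number them); same-dam deviations from the day mean correlated at -0.02 to 0.22 over 9 pairs. The number of arrays limits the precision, and p-values measure only the spread between these dams.

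The 7 genes, the lists and the rule for named genes were chosen with earlier results of these data known. The rule named all 9 probes, up to 5 genes per red cell list higher in serum and up to 4 called between days, largest first. Some genes that it named are not reported here. RefSeq symbols, starts and promoters come from assembly GRCr8. Alternatives were 75th percentile scaling, spike-in scaling, normexp (offset 50), filters, blocks, Tukey-Kramer tests, other fold thresholds and each whey array left out.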

Additional observations from a re-analysis of the deposited data

How the results depend on the processing

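The count of member probes called from d 2 to d 9 was 1 and became 2 with spike-in scaling (Bpgm, 1.87, adjusted p = 0.0332, limma) and 0 with no filter, with slide as a fixed block and with the Tukey-Kramer test. It was 0 to 1 with each whey array left out. From d 2 to d 16 it was 1 throughout, but slide as a fixed block could not be fitted there. From d 9 to d 16 it was 0 and became 1 (LOC287167) with normexp, with a processed signal above 100, when a probe had to pass the background flag on all 9 whey arrays and with slide as a random block. LOC287167 then had adjusted p-values of 0.0326 to 0.0435, and over all alternatives 0.0326 to 0.841, the highest with spike-in scaling (0.18). With dam as a replicate block the changes of LOC287167 had adjusted p-values of 0.0234, 0.00323 and 0.0766, and no call of a member changed. Bpgm reversed from d 9 to d 16 with spike-in scaling (-0.85), without d 9 whey of dam 2 (-0.03) and without d 16 whey of dam 1 (-0.11), where leaving out each array gave -0.11 to 0.14, and its serum minus d 9 difference reversed with spike-in scaling (-0.52). The 8 probes over 4-fold higher in serum became 2 for every day when only probes well above background in serum and on all 3 arrays of the day were counted, since fewer probes were then eligible. For d 9 whey they became 9 with 75th percentile scaling, which added a Slc4a1 probe at background in serum. Otherwise the counts stayed at 6 to 8 for all 3 days.

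Over all probes the counts called ranged from 498 to 7032 (d 2 to d 9), 704 to 5668 (d 2 to d 16) and 0 to 855 (d 9 to d 16), and those over 4-fold higher in serum from 833 to 5636, 580 to 5965 and 737 to 5569. Spike-in scaling moved the median change of all probes to 1.55, 0.59 and -0.95, and LOC287167 lay 1.02, 2.16 and 1.13 above these medians. The causes of these shifts were not tested. Serum rests on 1 array with few probes well above background, so probes near background there (both of Rhag, and Klf1) have imprecise ratios. The same holds for list genes at similar serum levels, such as Tmod1, Hbe1, Hemgn, Hbe2, Art4 and Gata1. Bounds of the list genes other than MGC72973 are given with quantile normalization only.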
